A study of Homo sapiens with 6 samples.

Results

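The zinc finger genes of human chromosome 19 were examined as 1 family in HGC27 cells with and without overexpression of the FN1 3′-UTR. A gene was taken as a member when its row in the deposited tables carried a name of ZNF followed by digits, with at most 1 further letter, and lay on chromosome 19. Of 39739 gene rows, 260 met this rule, and 276 further rows with such names lay on other chromosomes. Members that start before 26 Mb, inside the centromere gap of GRCh38, were assigned to the short arm (19p, 92 members) and the rest to the long arm (19q, 168 members). In GENCODE release 29, 243 members were protein-coding, 14 were pseudogenes and 3 were not found by name, and for 244 the start and end of that release equalled those of the deposited tables. No expression value was used to choose them.

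HGC27 is an established cell line from a gastric cancer. The HGC27-FN1 3′-UTR cells carried a lentivirus that expresses the 3′-UTR of the FN1 transcript and had been selected with puromycin as a stable line, and the HGC27-control cells were the control of the same parental line. Each group had 3 strand-specific mRNA libraries, and the comparison asks how the transcriptome differs between these lines. The labels do not say whether the 3 libraries of a group came from separate cultures, so p-values measure only the spread between these libraries, which may be technical.

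Most ZNF genes encode proteins with a row of C2H2 zinc fingers, small domains in which paired cysteines and histidines hold a zinc ion and which read DNA bases. Many of them also carry a KRAB domain that recruits the corepressor TRIM28 and, through it, the histone H3 lysine 9 methyltransferase SETDB1, and they are known for silencing transposable elements and imprinted loci. The family grew by tandem duplication, which left dense clusters along chromosome 19, and zinc finger transcripts are usually scarce.

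The sequence that the family shares is the linker between neighbouring fingers. A search of the longest coding sequence of each gene, in frame on the coding strand, found the codons of the canonical linker in 209 of the 243 protein-coding members (86.0%), against 522 of 19590 protein-coding genes (2.66%) in the genome, members included. The median over the 243 members was 6 linkers and the highest was 24, in ZNF850. A codon pattern of the finger itself, with cysteines and histidines at C2H2 spacing, was found in 242 members (99.6%) against 4.37% of all protein-coding genes, with a median of 12 fingers and a highest value of 39 in ZNF729. ZNF738 was the member without it. In 198 of the 209 members the first linker lay in the last exon. The linkers of the 7 members below are shown because the results turn on these genes: the most abundant member (ZNF146), the lower members with the smallest adjusted p-values (ZNF317, ZNF473 and ZNF440), further lower members of 19p and 19q (ZNF442 and ZNF227), and the 1 member that was higher (ZNF536). Each is the first linker of the gene, read 5′ to 3′ on the coding strand from GENCODE 29 transcripts on GRCh38, with the linker codons in capitals.
ZNF317 (forward strand, chr19:9160372-9160401, coding exon): atccacACCGGGGAGAAGCCTtacgagtgc
ZNF440 (forward strand, chr19:11831669-11831698, coding exon): gatcacACTGGAGAGAAACCCaatgcttgt
ZNF442 (reverse strand, chr19:12350868-12350897, coding exon): actcacACTGGAGAGAAACCGtatgaatgt
ZNF536 (forward strand, chr19:30444013-30444042, coding exon): acgcacACGGGCGAGAAGCCCttcaagtgc
ZNF146 (forward strand, chr19:36236717-36236746, coding exon): attcacACTGGAGAAAAACCTtttgagtgt
ZNF227 (forward strand, chr19:44235463-44235492, coding exon): actcatACTGGAGAGAAACCCtataaatgc
ZNF473 (forward strand, chr19:50045296-50045325, coding exon): actcacACTGGAGAAAAACCAtgtaagagt
ZNF536 carried this linker in exon 2 of 5, whereas the other 6 carried it in the last exon of their transcript. Because such repeats recur across the family, the share of each member's 50-base transcript windows that also occur in a transcript of another gene was counted. The median share was 2.65%, 54 of 257 members with a transcript had a share of at least 10%, and 23 had at least 25%. How reads that fit several genes were handled is not given in the sources used here, so the levels of those members are uncertain.

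The deposited unit was RPKM, reads per kilobase of a gene's merged exons per 1000000 reads assigned to genes. Assigned reads ranged from 16357085 to 29202046 among the treated libraries (HGC27-FN1 3′-UTR) and from 22332816 to 37037532 among the controls, and 3 reads, taken as the detection floor, corresponded to 0.081 to 0.183 per 1000000 reads, a floor for counting error only. The FN1 row, which covers the merged exons of the gene, read 0.777, 0.745 and 0.819 RPKM in HGC27-FN1 3′-UTR replicates 1 to 3 and 0.543, 0.474 and 0.532 in HGC27-control replicates 1 to 3. FN1 was thus higher by 0.52 on the log2 scale (SE 0.108, limma, adjusted p = 0.029), and this row does not tell the transgene from the endogenous transcript. VIM, a mesenchymal marker, was at 286 to 324 RPKM in all 6 libraries, while the leukocyte marker PTPRC did not exceed 0.016 RPKM and the endothelial marker PECAM1 was at 0. CDH2, the other mesenchymal marker examined, was at only 0.025 to 0.074 RPKM, with 2 to 11 reads per library, and was not tested. All 5 epithelial markers examined (EPCAM, CDH1, KRT8, KRT18 and KRT19) were higher in HGC27-FN1 3′-UTR cells, with a summed level of 18.2 to 27.0 RPKM against 2.59 to 2.99 RPKM in the controls. The fibroblast markers COL1A1 and DCN summed to 45.9 to 47.5 RPKM against 29.2 to 36.6 RPKM. These differences moved with the same 2 groups as the ZNF results, and their part in those results was not tested. In bulk RNA, fewer cells of a kind and less RNA per cell cannot be told apart.

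Zinc finger transcripts of chromosome 19 were scarce but broadly detected. Together the 260 members took 29275 to 68618 reads per library, or 0.177% to 0.190% of all assigned reads, and 236 to 248 of them had at least 1 read in a given library. Averaged over the 6 libraries, 9 members reached 5 RPKM, 108 lay between 1 and 5 RPKM, 98 between 0.1 and 1 RPKM, and 45 were under 0.1 RPKM. The median level was 0.846 RPKM on 19p and 0.852 RPKM on 19q. The share under 0.1 RPKM was 22 of 92 (23.9%) on 19p and 23 of 168 (13.7%) on 19q.

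ZNF146 was the most abundant member by a wide margin. It encodes OZF, a protein made almost entirely of zinc fingers without a KRAB domain. Its level was 42.0, 43.9 and 41.1 RPKM in HGC27-FN1 3′-UTR replicates 1 to 3 and 43.9, 43.8 and 41.8 RPKM in HGC27-control replicates 1 to 3. The groups overlapped, with a log2 fold change of −0.03 (SE 0.036, limma, adjusted p = 0.68) that turned to 0.0078 with median-ratio scaling. Its row overlaps that of ZNF565 on the opposite strand. ZNF428 followed at 13.4, 12.9 and 13.8 RPKM against 13.3, 13.6 and 14.7 RPKM in the controls, and its groups overlapped as well. ZNF317, a KRAB protein gene, had a mean level of 12.3 RPKM and was the most abundant on 19p. ZNF787 read 10.8, 10.5 and 10.9 RPKM in HGC27-FN1 3′-UTR cells and 9.48, 10.0 and 9.86 RPKM in the controls. Every treated library of ZNF787 lay above every control library, but the difference of 0.13 (SE 0.037) missed the threshold (adjusted p = 0.065). On 19p the next levels were those of ZNF358 at 8.805, 7.56 and 8.29 RPKM against 8.808, 9.55 and 10.0 RPKM, and of ZNF121 at 7.82, 8.06 and 8.43 RPKM against 8.44, 8.61 and 8.19 RPKM. The groups of ZNF121 overlapped, those of ZNF358 were apart by a gap far smaller than the spread within each, and neither gene passed the test (adjusted p = 0.46 and 0.12, limma). ZNF302 on 19q read 5.42, 5.89 and 5.68 RPKM against 6.23, 6.38 and 5.999 RPKM, and ZNF700 on 19p read 4.68, 4.22 and 4.97 RPKM against 5.76, 5.46 and 5.24 RPKM. In both genes all treated libraries lay below all controls, by 0.13 and 0.24 on the log2 scale, with adjusted p-values of 0.13 and 0.076 (limma).

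Along the chromosome the members fell into 9 clusters, defined as runs of at least 5 members in which each start was less than 1 Mb from the next. On 19p, cluster 1 held 5 members (chr19:2819874-2944971), cluster 2 held 16 (chr19:7069444-9793180), cluster 3 held 28 (chr19:11483427-12640098) and cluster 4 held 41 (chr19:19668796-24129961). On 19q, cluster 5 held 6 (chr19:34542462-34964049), cluster 6 held 26 (chr19:36182060-37817300), cluster 7 held 25 (chr19:43525497-45076588), cluster 8 held 42 (chr19:51571298-53580269) and cluster 9 held 59 (chr19:55476332-58481230). A further 2 members on 19p and 10 on 19q stood apart. Cluster 2 had the highest median level of the 9 clusters, 1.40 RPKM, followed by cluster 3 at 1.06 RPKM and cluster 9 at 0.938 RPKM. Cluster 1 had the lowest, 0.393 RPKM over its 5 members, and cluster 4 followed at 0.520 RPKM.

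**Figure D1:**
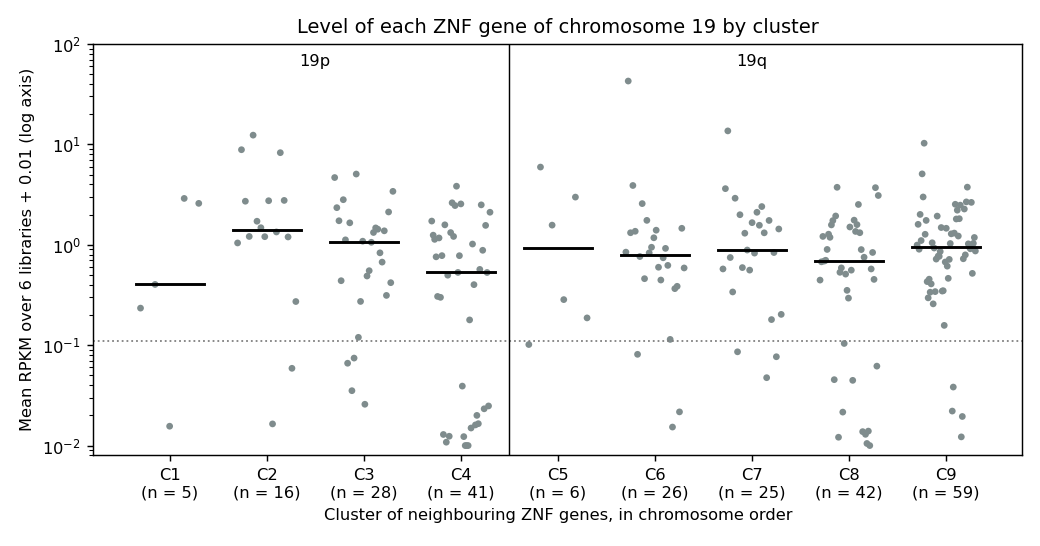
Mean RPKM over the 6 libraries plus 0.01 (log axis) for each member, grouped by cluster in chromosome order with 19p left and 19q right; points are genes, black bars cluster medians, the dotted line 0.1 RPKM, and the 12 members outside clusters are not drawn. ZNF146 in cluster 6 stands above all others, and clusters 4 and 8 hold most of the genes near 0.

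The members near 0 were gathered in clusters 4 and 8. In cluster 4, the pericentromeric cluster of 19p, 14 of 41 members (34.1%) were under 0.1 RPKM, among them ZNF43, ZNF85, ZNF99, ZNF208, ZNF626 and ZNF726, and in cluster 8 the figure was 11 of 42 (26.2%). In cluster 9 it was 4 of 59 (6.78%), and these were ZNF154, ZNF256, ZNF418 and ZNF671. Over the whole chromosome 4 members had no read in any library, namely ZNF257, ZNF676 and ZNF729 in cluster 4 and ZNF677 in cluster 8. These genes were named after their values were seen. Promoters differed between the clusters as well. In RefSeq promoters of 300 bases (GRCh38.p14), which were found for 212 members, the dinucleotide CG occurred a median of 20 times per promoter against 14 times over all 35116 promoters. Cluster 4 had the lowest median of the 9 clusters, 10, and clusters 1, 5 and 8 had 25, 26 and 25. Levels of neighbouring members within a cluster were weakly alike, with a Spearman correlation of mean RPKM of 0.18 over 239 neighbouring pairs, which share libraries and partly sequence.

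Differences between the lines were tested by limma on the log2(RPKM + 0.1) scale, which understates changes of low genes, over the 23299 genes with at least 0.1 RPKM in 3 or more libraries. This left 216 members, 70 on 19p and 146 on 19q. The other 44 members, 22 on each arm, did not exceed 0.158 RPKM in any library. They had a median of 5.5 reads and at most 134 reads over all 6 libraries together. A difference in those with few reads was not detectable at this depth.

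Changes in single members were small, and few passed the test. At an adjusted p under 0.05 (Benjamini-Hochberg over all tested genes), 11 members were lower and 1 was higher in HGC27-FN1 3′-UTR cells. The lower members made up 5.09% of the 216 tested, against a background of 7.36% of all tested genes called lower. The background called higher was 5.62%. By arm, 5 of 70 members on 19p were lower and 0 were higher, and 6 of 146 on 19q were lower and 1 was higher. At an unadjusted p under 0.05 the 19p counts were 13 lower and 3 higher and the 19q counts 26 lower and 6 higher, so that 22.2% of the members passed this level in either direction against 29.6% of all tested genes. The split of calls moved with the method. Median-ratio scaling gave 6 lower and 2 higher members, and over all tested genes 1331 lower and 1696 higher. Limma voom on reads recovered from the RPKM gave 21 lower and 8 higher members (4 of the higher on 19p), with backgrounds of 10.3% lower and 11.6% higher. All 12 members called in the first fit were also called by voom, in the same direction. No member reached an absolute log2 fold change above 1 together with an unadjusted p under 0.05, criteria that 1.65% of all tested genes met as higher and 0.815% as lower. The lower count also depended on single libraries. It fell from 11 to 4 without HGC27-control replicate 1, to 2 without HGC27-control replicate 3 or without any one of the 3 HGC27-FN1 3′-UTR replicates, and to 0 without HGC27-control replicate 2, where 21 members were lower at an unadjusted p under 0.05. Lower calls over all tested genes fell as well, from 1715 to 1015 without HGC27-control replicate 1 and to 815 without HGC27-control replicate 3. They fell to 470 without HGC27-control replicate 2, and to between 696 and 947 without 1 HGC27-FN1 3′-UTR replicate.

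**Figure D2:**
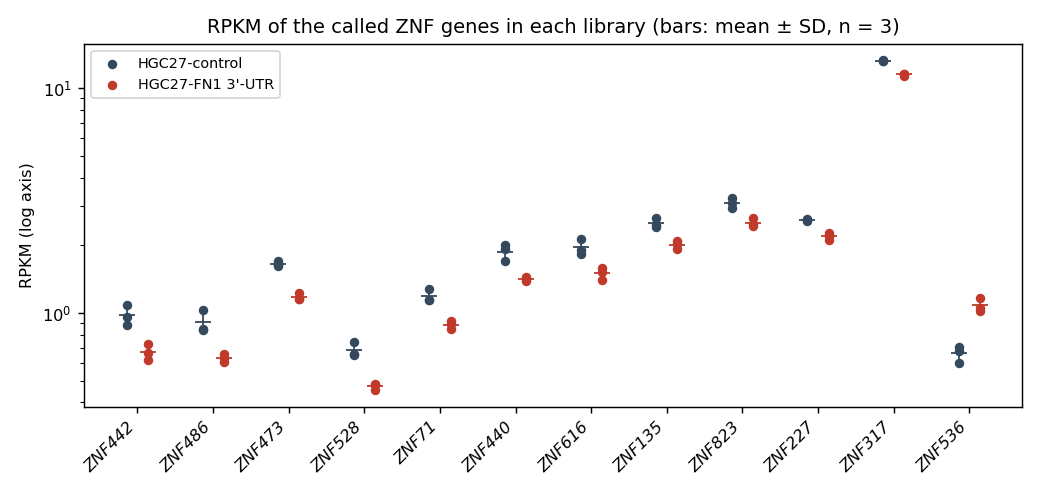
RPKM (log axis) of the 12 members that passed an adjusted p under 0.05, in each of the 3 HGC27-control libraries (dark) and the 3 HGC27-FN1 3′-UTR libraries (red); bars are the mean ± SD (n = 3). The groups do not overlap in any of the 12, and ZNF536 is the 1 gene with higher treated values.

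ZNF317 and ZNF473 were the lower members that depended least on 1 library. ZNF317 (chr19:9140380-9163424, forward strand, cluster 2) read 11.3, 11.6 and 11.6 RPKM in HGC27-FN1 3′-UTR replicates 1 to 3 and 13.2, 13.3 and 13.2 RPKM in HGC27-control replicates 1 to 3. The spread within each group was far smaller than the gap between them, and the log2 fold change was −0.20 (SE 0.029, limma, adjusted p = 0.011). ZNF473 (chr19:50025714-50053414, forward strand, 19q outside clusters) encodes ZFP100, a component of the machinery that forms the 3′ end of histone transcripts. It read 1.15, 1.16 and 1.23 RPKM against 1.62, 1.63 and 1.70 RPKM in the controls, without overlap, and fell by 0.45 on the log2 scale (SE 0.070, limma, adjusted p = 0.012). Its row overlaps VRK3 on the opposite strand, and whether the counting used strand is not given in the sources used here. Both genes stayed called when any single library was left out except HGC27-control replicate 2, without which each had an adjusted p of 0.056.

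Of the other lower members on 19p, 3 lay in cluster 3 and 1 in cluster 4. ZNF440 (chr19:11814284-11835201) read 1.45, 1.39 and 1.41 RPKM against 1.70, 1.99 and 1.92 RPKM, ZNF823 (chr19:11721265-11739009) read 2.63, 2.43 and 2.49 RPKM against 3.10, 2.93 and 3.23 RPKM, and ZNF442 (chr19:12345949-12365905) read 0.661, 0.729 and 0.615 RPKM against 0.961, 1.08 and 0.880 RPKM. No treated library of these genes reached a control library. They fell by 0.38, 0.28 and 0.48 on the log2 scale (SE 0.081, 0.062 and 0.12), with adjusted p-values of 0.031, 0.034 and 0.045 (limma). ZNF486 in cluster 4 (chr19:20167228-20200490) read 0.631, 0.605 and 0.659 RPKM against 0.851, 1.03 and 0.843 RPKM. The groups were again apart, with a log2 fold change of −0.46 (SE 0.11, limma, adjusted p = 0.048). ZNF440 remained called without HGC27-control replicate 1 alone, and the other 3 in none of the fits that left out 1 library.

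The remaining lower members on 19q were spread over clusters 7, 8 and 9. ZNF227 in cluster 7 (chr19:44207547-44237268) read 2.27, 2.12 and 2.20 RPKM against 2.62, 2.57 and 2.58 RPKM. In cluster 8, ZNF616 (chr19:52113091-52139922) read 1.59, 1.40 and 1.52 RPKM against 2.13, 1.91 and 1.83 RPKM, and ZNF528 (chr19:52397849-52418412) read 0.480, 0.485 and 0.454 RPKM against 0.745, 0.654 and 0.652 RPKM. In all 3 genes the treated libraries lay below the controls without overlap. In cluster 9, ZNF71 (chr19:56595264-56626481) read 0.892, 0.849 and 0.921 RPKM against 1.15, 1.27 and 1.14 RPKM, and ZNF135 (chr19:58059239-58086310) read 1.91, 2.03 and 2.10 RPKM against 2.47, 2.63 and 2.42 RPKM. These groups did not overlap either. The log2 fold changes were −0.23 for ZNF227, −0.36 for ZNF616, −0.45 for ZNF528, −0.38 for ZNF71 and −0.30 for ZNF135, with standard errors from 0.055 to 0.11 and adjusted p-values from 0.032 to 0.048 (limma). None of these 5 calls held when any single library was left out. ZNF227 shares its locus with ZNF235 on the opposite strand, and ZNF135 with ZSCAN18.

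ZNF536, the member that was higher, stands alone on 19q beyond the centromere (chr19:30228290-30713538, forward strand). It encodes a repressor of neuronal differentiation. Its level was 1.17, 1.02 and 1.06 RPKM in HGC27-FN1 3′-UTR replicates 1 to 3 and 0.602, 0.703 and 0.676 RPKM in HGC27-control replicates 1 to 3. Every treated library was above every control, by 0.64 on the log2 scale (SE 0.10, limma, adjusted p = 0.015), a ratio of 1.64 between the group means. Without HGC27-FN1 3′-UTR replicate 1 the adjusted p was 0.053.

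Taken over the tested members, small decreases were more frequent than increases. In 66 of 216 members (30.6%) all 3 treated libraries lay below all 3 controls, against 21.7% of all tested genes and 29.4% of protein-coding genes, and in 13 (6.02%) they lay above, against 14.3% and 18.5%. The share entirely below was thus near that of protein-coding genes. The log2 fold change was below 0 in 161 members (74.5%), 51 of 70 on 19p and 110 of 146 on 19q, against 56.3% of all tested genes and 58.4% of protein-coding genes. The median log2 fold change was −0.09 on 19p and −0.10 on 19q, against −0.04 over all tested genes and over protein-coding genes, and single values ranged from −0.49 to 0.64. With median-ratio scaling 139 members were below 0, and with voom 138. The median of the members was −0.07 in both fits, against −0.003 and 0.0002 over all tested genes. The share of all tested genes below 0 was not counted in these 2 fits, so 56.3% is not its measure there. These members share libraries, so the counts are a description without a test. Among ZNF rows on other chromosomes 71.8% of 241 tested rows were below 0, with a median of −0.11. Of these rows 27 (11.2%) were called lower and 5 (2.07%) higher, larger shares than the 5.09% and 0.463% of the members, a difference that was not tested. Chromosome 19 rows other than the members were below 0 in 60.9% of 700 rows on 19p and 61.3% of 702 on 19q, with medians of −0.05 and −0.06. Protein-coding rows inside the clusters whose names lay outside the ZNF pattern, some of them zinc finger genes under other names such as ZFP30 and ZIK1, were below 0 in 37 of 79, with a median of 0.01.

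**Figure D3:**
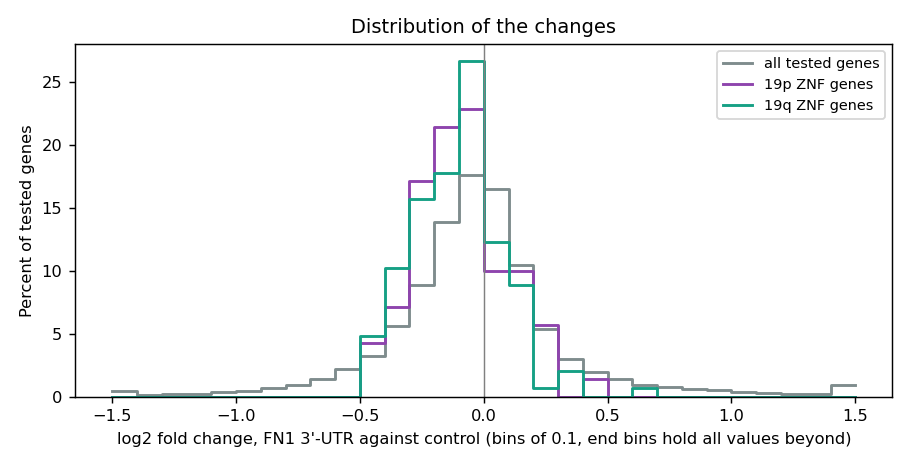
Share of genes (percent) in bins of 0.1 of the log2 fold change, HGC27-FN1 3′-UTR against HGC27-control, for all 23299 tested genes (grey), 70 members on 19p (purple) and 146 on 19q (green); the end bins hold all values beyond. Both ZNF curves sit left of the curve of all genes and lack its wide tails.

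Since ZNF genes are expressed at lower levels than most others, the counts were also set beside genes of like level. Among members with a mean under 0.5 RPKM, 33 of 42 (78.6%) were below 0 against 59.9% of non-ZNF protein-coding genes of that level. From 0.5 to 1 RPKM it was 39 of 57 (68.4%) against 63.2%, and from 1 to 2 RPKM 53 of 69 (76.8%) against 65.1%. From 2 to 5 RPKM it was 28 of 39 (71.8%) against 63.7%, and at 5 RPKM or more 8 of 9 (88.9%) against 51.3%. The share below 0 among the members was higher in each of the 5 classes. In the same order, the median log2 fold changes of the members were −0.198, −0.092, −0.095, −0.065 and −0.054. Those of the other genes were −0.089, −0.096, −0.076, −0.063 and −0.005. The share called lower was smaller among the members in each class, at 0%, 5.26%, 5.80%, 7.69% and 11.1%. Among the other genes it was 3.23%, 6.07%, 11.1%, 13.5% and 12.1%. By number of linkers, members without a linker were below 0 in 19 of 31, those with 1 to 4 in 41 of 53, those with 5 to 8 in 57 of 74 and those with 9 or more in 39 of 50. The lower calls in these linker classes numbered 0, 1, 6 and 4 (0%, 1.89%, 8.11% and 8.0%), against 7.36% of all tested genes. The shares at 5 or more linkers were thus near that of all tested genes. By share of windows found in another gene, members under 1% were below 0 in 57 of 72, those from 1% to 5% in 45 of 61, those from 5% to 10% in 20 of 32 and those of at least 10% in 38 of 49. The lower calls in these window classes numbered 5, 5, 1 and 0 (6.94%, 8.20%, 3.1% and 0%), against the same 7.36% of all tested genes. Differences between the classes were not tested.

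The clusters did not all move alike. In cluster 1 all 4 tested members were below 0, in cluster 2 all 14, in cluster 3 21 of 24, in cluster 5 4 of 5, in cluster 6 20 of 23, in cluster 7 15 of 22, in cluster 8 28 of 32 and in cluster 9 37 of 55. In cluster 4 it was 11 of 27. With median-ratio scaling the counts below 0 in clusters 1 to 9 were 3, 12, 19, 7, 4, 17, 13, 25 and 35. With voom they were 3, 11, 19, 7, 4, 16, 12, 26 and 36. In the first fit the cluster medians lay at −0.17, −0.15 and −0.19 for clusters 1 to 3 and at 0.05 for cluster 4. For clusters 5 to 9 they lay at −0.19, −0.14, −0.04, −0.12 and −0.10. The median of cluster 7 was −0.01 both with median-ratio scaling and with voom. Cluster 4 was the 1 cluster with a median above 0, and it stayed above 0, between 0.02 and 0.10, in every alternative that was run. Within clusters the log2 fold changes of neighbouring tested members had a Spearman correlation of 0.26 over 197 pairs.

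**Figure D4:**
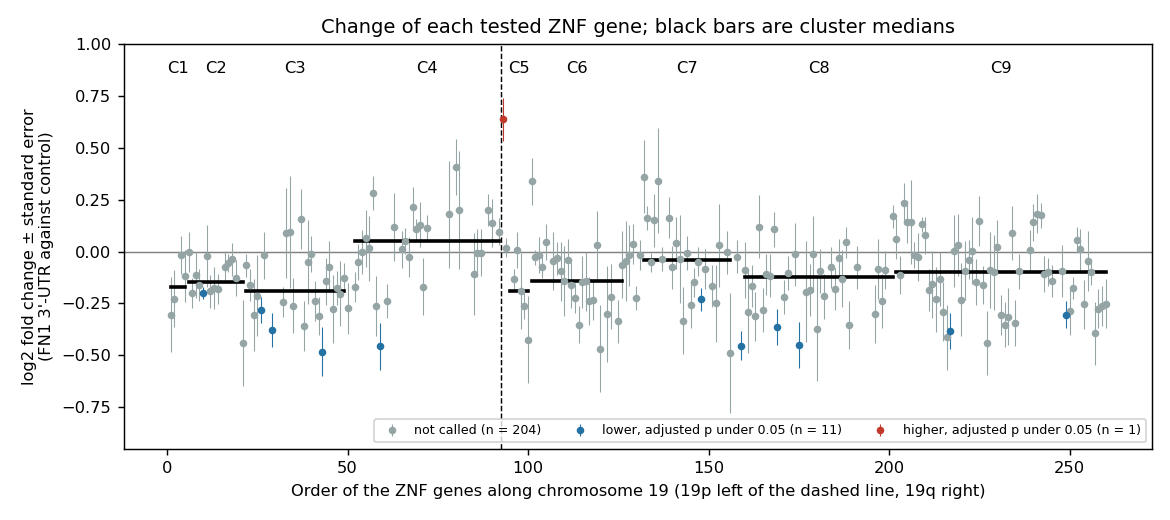
Log2 fold change ± standard error (HGC27-FN1 3′-UTR against HGC27-control) of the 216 tested members, in their order along chromosome 19, with 19p left of the dashed line; black bars are the medians of clusters 1 to 9, blue points were called lower and the red point, ZNF536, higher. The bar of cluster 4 lies above 0 and the other 8 lie below it.

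Summed levels showed the same pattern in each library. The 19p members summed to 121, 118 and 122 RPKM in HGC27-FN1 3′-UTR replicates 1 to 3 and to 130, 131 and 128 RPKM in HGC27-control replicates 1 to 3. The treated sums lay below the controls without overlap, at a mean of 120.2 ± 2.04 against 129 ± 1.42 RPKM (SD, n = 3), or 7.07% lower. On 19q the sums were 249, 247 and 247 RPKM against 258, 263 and 257 RPKM, again without overlap, and 4.44% lower on average. All sums are on the deposited RPKM scale. Median-ratio scaling multiplies the treated libraries by 1.010 to 1.016 and the controls by 0.978 to 1.007, which narrows such gaps. The sums were not recomputed with it, so the lack of overlap is given for the deposited scale alone. The ratio of the 19q sum to the 19p sum was 2.07, 2.10 and 2.03 in the treated libraries and 1.99, 2.02 and 2.01 in the controls, so the ranges did not overlap, although the nearest values were close. On 19p the members outside cluster 4 were 10.8% lower in sum, with 40 of 43 tested members below 0 and a median of −0.17. Cluster 4 was left out because of its values, so the larger decrease in the rest follows from that choice. With median-ratio scaling 35 of the 43 were below 0, and with voom 34. Cluster 3, which holds ZNF440, ZNF442, ZNF700 and ZNF823, summed to 34.9, 33.6 and 34.1 RPKM against 39.5, 39.6 and 38.6 RPKM in the controls, 12.8% lower. In this cluster 10 of 24 tested members (41.7%) had treated libraries entirely below the controls, against 21.7% of all tested genes and 29.4% of protein-coding genes. In 0 members they lay entirely above, against 14.3% and 18.5%. At an unadjusted p under 0.05 (limma) 7 were lower and 0 higher, or 29.2% in either direction, near the 29.6% of all tested genes. Its exceptions in direction, named after their values were seen, were ZNF433, ZNF763 and ZNF788.

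**Figure D5:**
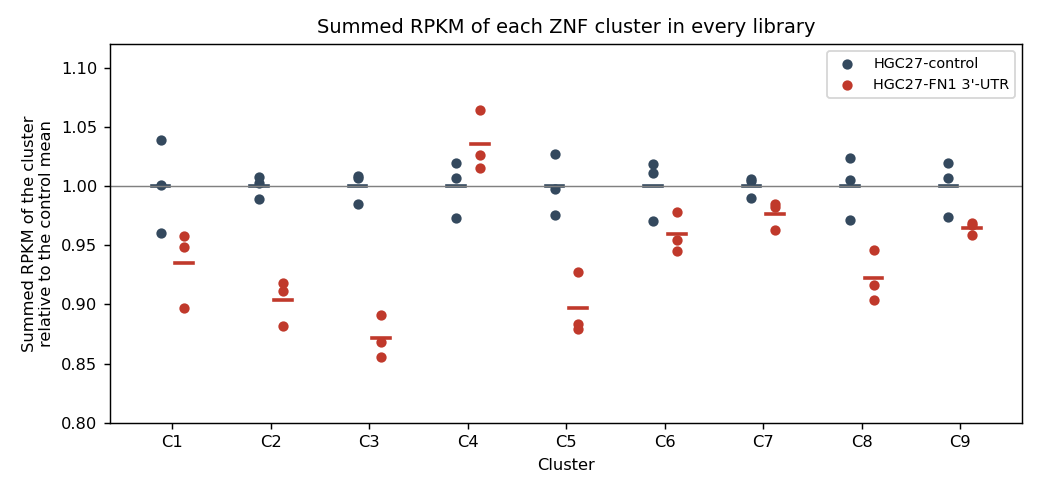
Summed RPKM of all members of each cluster in every library, divided by the mean of the 3 HGC27-control libraries; dark points are controls, red points HGC27-FN1 3′-UTR libraries, and bars group means (n = 3). On the deposited RPKM scale, treated and control points overlap in clusters 4 and 6 and are apart in the others, with the lowest treated points in cluster 3.

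Cluster 4, next to the centromere, was the 1 cluster with a higher mean sum in the treated libraries. Its members summed to 34.6, 34.3 and 35.9 RPKM in HGC27-FN1 3′-UTR replicates 1 to 3 and to 34.4, 34.0 and 32.9 RPKM in HGC27-control replicates 1 to 3, overlapping ranges with means of 35.0 ± 0.87 and 33.8 ± 0.81 RPKM (SD, n = 3). Relative to the sum of the other 19p members, cluster 4 stood at 0.402, 0.410 and 0.418 in the treated libraries and at 0.361, 0.352 and 0.346 in the controls, without overlap. The cluster was singled out after its values were seen, so no test was made of this difference. Of its 27 tested members 5 had treated libraries entirely above the controls (18.5%, against 14.3% of all tested genes and 18.5% of protein-coding genes). Another 4 had them entirely below (14.8%, against 21.7% and 29.4%). The 5 were ZNF682, ZNF493, ZNF492, ZNF675 and ZNF681. ZNF682 read 1.33, 1.29 and 1.23 RPKM against 1.08, 0.980 and 1.05 RPKM (log2 fold change 0.28, limma, adjusted p = 0.071), and ZNF675, known as an inhibitor of TRAF6 signalling, read 1.67, 1.65 and 1.68 RPKM against 1.56, 1.34 and 1.41 RPKM (0.20, adjusted p = 0.15). ZNF492 had 0.41 (adjusted p = 0.10), but 33.3% of its windows occur in another gene. With limma voom on the recovered reads, 4 of the 27 (14.8%) passed the adjusted threshold as higher, namely ZNF682, ZNF675, ZNF492 and ZNF708. In the same fit 1 of the 27 (3.70%), ZNF486, passed as lower. The backgrounds over all tested genes were 11.6% higher and 10.3% lower. ZNF91, a repressor of SVA retrotransposons, read 0.806, 0.941 and 0.8596 RPKM against 0.797, 0.843 and 0.982 RPKM, and ZNF93, which represses LINE-1 elements, 0.313, 0.285 and 0.294 RPKM against 0.247, 0.332 and 0.304 RPKM. Both overlapped between the groups. Rows of other genes inside cluster 4 were below 0 in 22 of 40, with a median of −0.02, and inside cluster 3 in 20 of 28, with a median of −0.20.

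On 19q, 8 of 146 tested members (5.48%) had treated libraries entirely above the controls, against 14.3% of all tested genes and 18.5% of protein-coding genes. In 45 (30.8%) they lay entirely below, against 21.7% of all tested genes and a nearby 29.4% of protein-coding genes. Besides ZNF536 and ZNF787, the 8 were ZNF565 in cluster 6, ZNF576 in cluster 7, ZNF331 in cluster 8 and ZNF524, ZNF552 and ZNF587B in cluster 9. ZNF331, an imprinted gene, read 3.09, 3.33 and 3.41 RPKM against 2.90, 2.94 and 2.85 RPKM, a difference of 0.17 that did not pass (limma, adjusted p = 0.098). ZNF274 in cluster 9, which binds the 3′ ends of zinc finger genes and brings SETDB1 to them, read 2.51, 2.42 and 2.56 RPKM against 2.91, 2.83 and 2.76 RPKM. Its treated libraries were below the controls, by 0.18 on the log2 scale, but it missed the threshold (limma, adjusted p = 0.081). Genes named in this paragraph and in the account of cluster 4, other than ZNF536, ZNF787 and ZNF486, were chosen after their values were seen.

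Corepressors and silencing factors that act with KRAB zinc fingers did not move in 1 direction. Of a list of 36 such genes, 35 were tested, 2 (5.71%) were called higher and 4 (11.4%) lower, and the median log2 fold change was 0.00. These shares were near the 5.62% and 7.36% of all tested genes and the 7.97% and 10.5% of protein-coding genes, so the calls set the list apart in neither direction. Treated libraries lay entirely above the controls in 10 of the 35 (28.6%), against 14.3% of all tested genes and 18.5% of protein-coding genes. They lay entirely below in 9 (25.7%), against 21.7% and 29.4%. The larger share entirely above was not tested. TRIM28, the KRAB corepressor, read 47.5, 43.9 and 46.4 RPKM in HGC27-FN1 3′-UTR replicates 1 to 3 and 43.3, 47.1 and 49.0 RPKM in HGC27-control replicates 1 to 3. The groups overlapped (log2 fold change −0.02, limma, adjusted p = 0.89). SETDB1 read 6.04, 6.32 and 5.72 RPKM against 6.60, 6.68 and 6.41 RPKM, apart in every library but not past the threshold (−0.12, limma, adjusted p = 0.15). ATRX, a chromatin remodeler, and CBX5, which encodes heterochromatin protein HP1 alpha, were higher, with means of 8.80 ± 0.57 against 7.12 ± 0.48 RPKM and 21.4 ± 0.73 against 18.6 ± 0.35 RPKM (SD, n = 3). The lower genes were the insulator factor CTCF at 34.0 ± 0.18 against 40.7 ± 1.41 RPKM, the H3 lysine 9 methyltransferase EHMT2 at 14.1 ± 0.19 against 16.8 ± 0.27 RPKM, the DNA methyltransferase DNMT3B at 8.83 ± 0.31 against 10.7 ± 0.51 RPKM, and MORC2, a partner of the HUSH silencing complex, at 12.5 ± 0.39 against 15.3 ± 0.68 RPKM. The groups did not overlap in these 6 genes, and their log2 fold changes lay between −0.28 and 0.30.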

How the data were processed

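RNA-seq tables of 6 libraries were analysed, 3 from each line, HGC27-FN1 3′-UTR and HGC27-control, grouped by the sample labels. The authors deposited RPKM per gene for each library, not pooled, on GRCh38. The submitters' processing notes name Trimmomatic 0.36, STAR 2.5.3a, featureCounts and Subread 1.5.1. The strand setting of the counting, the annotation release and the treatment of reads that map to several genes are not given in the sources used here. RPKM times gene length gave whole reads (within 0.05 read) for 100% of values, and these reads served for depths and 2 alternatives. Rows were fitted together with limma 3.58.1 (R 4.3.3) on log2(RPKM + 0.1), with group as the only term, empirical Bayes with a trend, two-sided, Benjamini-Hochberg over 23299 genes. The script was tested on simulated reads, where 139 of 198 genes changed 2-fold (70.2%) were called, beside 13 false calls. Smaller changes were not simulated. Members, lists and clusters were chosen with earlier results of these data known.

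Genes were named by rule: called members without overlap between groups (up to 10 in each direction), the 4 most abundant members of each arm, TRIM28, SETDB1 and called corepressors. Other named genes are marked in the text. Alternatives covered the pseudocount, the filter on low values, scaling, limma voom on recovered reads with TMM scaling, the replicate block, each library left out, stricter criteria, members in clusters alone and members without pseudogene symbols. A filter of at least 10 recovered reads per library was added after the data were seen. Coding sequences and exons came from GENCODE release 29 and promoters from RefSeq (GRCh38.p14). Python 3.11.15, pandas 2.3.3, numpy 2.4.6, scipy 1.17.1 and matplotlib 3.10.9 were used.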

Additional observations from a re-analysis of the deposited data

How the results depend on the processing

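The median log2 fold change stayed below 0 on both arms in every alternative, and the number of calls did not hold. Against 11 lower and 1 higher members (5 and 0 on 19p, 6 and 1 on 19q), single libraries left out in turn gave 0 to 4 lower and 0 to 1 higher (19p: 0 to 2 lower and 0 higher, 19q: 0 to 2 lower and 0 to 1 higher), with medians of −0.113 to −0.0706 on 19p and −0.108 to −0.0945 on 19q, against −0.09 and −0.10. Without a filter there were 4 lower, 2 on each arm, and a 19p median of −0.0561. With a minimum mean of 1 RPKM there were 3 lower on 19p, 0 higher, and a 19p median of −0.0729. Median-ratio scaling gave 6 lower and 2 higher, with 3 lower on 19p, 3 lower and 2 higher on 19q, and a 19p median of −0.0595. Limma voom gave 21 lower and 8 higher, with 4 higher on 19p, 15 lower and 4 higher on 19q, and a 19p median of −0.0507. A minimum of 10 reads in every library gave 22 lower and 3 higher (8 and 1 on 19p, 14 and 2 on 19q) and a 19p median of −0.110. Over all tested genes, that filter called 2337 of 17301 lower and 1478 higher. No filter called 1296 of 36521 lower and 1067 higher, and the minimum mean of 1 RPKM 1861 of 14652 lower and 1212 higher. A pseudocount of 1 gave medians of −0.0519 on 19p and −0.0540 on 19q. An absolute log2 fold change above 1 with an unadjusted p under 0.05 gave 0 in each count. In clusters alone 0 were higher on 19q, and the 19p median was −0.0735. With the replicate block 0 members were called in either direction or on either arm (25 lower and 6 higher at an unadjusted p under 0.05, limma). Over all tested genes the block left 2.57% called lower and 2.42% called higher. The labels number the replicates without stating a pairing, and deviations of same-numbered libraries correlated at 0.002 to 0.021, so the numbers were not taken as pairs. Excluding pseudogene symbols or a pseudocount of 0.01 changed no count by over 1.5 times. ZNF146 reversed from −0.03 to 0.0078 with median-ratio scaling and 0.0085 with voom. Of all alternatives for single named members, 176 kept direction and call, 80 lost the call, 4 gained one and 2 reversed. The 176 include alternatives of members never called, which had no call to lose. Among the called members the call held in from 4 of 13 alternatives (ZNF442, ZNF486 and ZNF528) to 12 of 14 (ZNF317 and ZNF473). The cause of these differences was not tested. Depth limits the members under 0.1 RPKM, where changes in rows with few reads were not detectable.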
